A study of Mus musculus with 15 samples.

Results

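The heart muscle genes of mouse lung RNA were followed over 15 samples. The set holds 10 genes known from heart muscle, 4 of them atrial in the adult mouse heart (Myl7, Myl4, Nppa and Sln), 2 ventricular (Myh7 and Myl3) and 4 found in both chambers (Myh6, Tnnt2, Tnni3 and Ryr2). They were found on the array through the RefSeq accession of each probe. All 10 genes, with 11 probes, passed the filter on dim probes, out of 25251 genes and unnamed transcripts tested. Each gene has 1 probe except Myh6 with 2, of which the brighter one was used.

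The lungs came from female C57BL/6 mice of 7 to 8 weeks, and the labels name no engineered allele in any group. In 4 samples the mice had aspirated rod-like carbon nanotubes (rCNT), fibre-shaped particles, as 10 µg suspended in 50 µl of buffered saline (PBS) once daily over 4 days, and in 4 samples they had aspirated 50 µl of PBS alone. In 3 samples the mice had inhaled an rCNT aerosol of 6.2 to 8.2 mg per cubic metre for 4 h per day on 4 days, and 4 samples came from untreated mice. The tissue was collected 24 h after exposure ended. Whether a sample holds 1 mouse or several is not stated in the labels, so the p-values measure only how far these samples spread, and that spread may be technical. Slide 1 carried the 8 aspiration samples, and slides 2 and 3 carried the other 7. One title among the samples called untreated (replicate 1) names PBS aspiration, whereas its other labels name no treatment.

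Heart muscle shortens when myosin heads, built of heavy and light chains, pull on thin filaments that calcium switches on through the troponins. Calcium reaches the filaments through the ryanodine receptor of the sarcoplasmic reticulum and is pumped back by an ATPase that the small protein sarcolipin (Sln) restrains. In mice and other rodents a sleeve of atrial-type heart muscle runs from the left atrium along the pulmonary veins into the lung, and it uses Myh6 and atrial light chains, whereas Myl2 and Myl3 are light chains of the ventricle and Myh7 is the slow heavy chain, prominent in the fetal ventricle and in slow skeletal muscle. RNA from whole tissue cannot separate these sources, and fewer cells of a type and less RNA per cell cannot be told apart.

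The start regions of atrial and ventricular members are shown together because the results below set these classes against each other. Each is the 250 bases before the annotated start, 5′ to 3′ on the gene's own strand, from RefSeq (GRCm38.p6). Capitals mark matches to a GATA site (AGATAA or AGATAG or TGATAA or TGATAG), a CArG box (the serum response factor site) or a TATA box (TATAAA), searched on both strands together with the MEF2 site. These matches did not overlap one another. The atrial hormone gene Nppa lies on the + strand at chr4:148000472-148000721, the atrial light chain gene Myl7 on the - strand at chr11:5898783-5899032, the ventricular light chain gene Myl3 on the + strand at chr9:110763428-110763677 and the slow heavy chain gene Myh7 on the - strand at chr14:54994627-54994876.
Nppa: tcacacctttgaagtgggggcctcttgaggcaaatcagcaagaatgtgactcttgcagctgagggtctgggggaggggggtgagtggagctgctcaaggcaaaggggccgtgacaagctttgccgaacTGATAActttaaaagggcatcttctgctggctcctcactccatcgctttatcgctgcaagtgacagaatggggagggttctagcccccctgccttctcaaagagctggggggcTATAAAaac
Myl7: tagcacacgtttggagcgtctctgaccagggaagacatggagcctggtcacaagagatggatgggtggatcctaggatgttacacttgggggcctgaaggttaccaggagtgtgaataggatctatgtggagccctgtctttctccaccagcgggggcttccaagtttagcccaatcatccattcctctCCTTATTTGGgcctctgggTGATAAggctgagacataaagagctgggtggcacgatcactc
Myl3: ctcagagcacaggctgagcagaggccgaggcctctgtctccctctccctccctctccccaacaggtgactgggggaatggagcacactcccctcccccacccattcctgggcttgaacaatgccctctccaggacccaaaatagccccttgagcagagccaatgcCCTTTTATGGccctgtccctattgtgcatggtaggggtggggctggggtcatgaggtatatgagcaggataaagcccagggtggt
Myh7: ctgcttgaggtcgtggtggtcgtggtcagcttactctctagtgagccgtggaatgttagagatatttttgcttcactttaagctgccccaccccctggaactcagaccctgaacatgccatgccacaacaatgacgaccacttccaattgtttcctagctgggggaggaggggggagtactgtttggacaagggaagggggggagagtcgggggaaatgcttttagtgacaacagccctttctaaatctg
The Nppa window held a GATA match 122 to 117 bases before the start and a TATA match 9 to 4 bases before it. The Myl7 window held a CArG match 61 to 52 bases before the start and a GATA match 42 to 37 bases before it, and the Myl3 window held a CArG match 85 to 76 bases before it. None of these letters stood in the Myh7 window. The table held windows for 9 of the 10 members, all but Sln. Among those not printed, the window of the atrial gene Myl4, at another start, held none of the matches. GATA matches stood before another start of Myh6 and of Tnnt2, genes of both chambers. A split of the classes by GATA match is thus not shown. Of 32851 such windows of mouse genes 26.5% held a GATA match, 2.92% a MEF2 match, 1.47% a CArG match and 12.4% a TATA match, so the matches describe these windows and are not shown to be sites in use.

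The genes were well above background in all 15 samples, apart from Ryr2 in 14. The label of the set was checked on neighbouring genes of the heart. Cardiac actin (Actc1) was well above background in all 15 samples. It did not follow the members in full. Its samples lay at 13.96 to 14.33 in PBS and 13.45 to 14.07 in untreated lungs, with overlap. Untreated replicate 3 (13.67) was not its lowest untreated sample. The ventricular regulatory light chain Myl2 was dim. It was well above background in 11 of 15 samples and lay at 6.34 to 6.91 on the log2 scale of normalised intensity over all samples. Its samples not well above background reached 6.44. The atrial growth factor gene Bmp10 was dim, at 6.13 to 6.56 over all samples. It was well above background in 5 samples, 3 inhaled rCNT and 2 untreated, and in 0 of the aspirated rCNT or PBS samples. It thus did not share the high level of the members in PBS lungs.

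**Figure D1:**
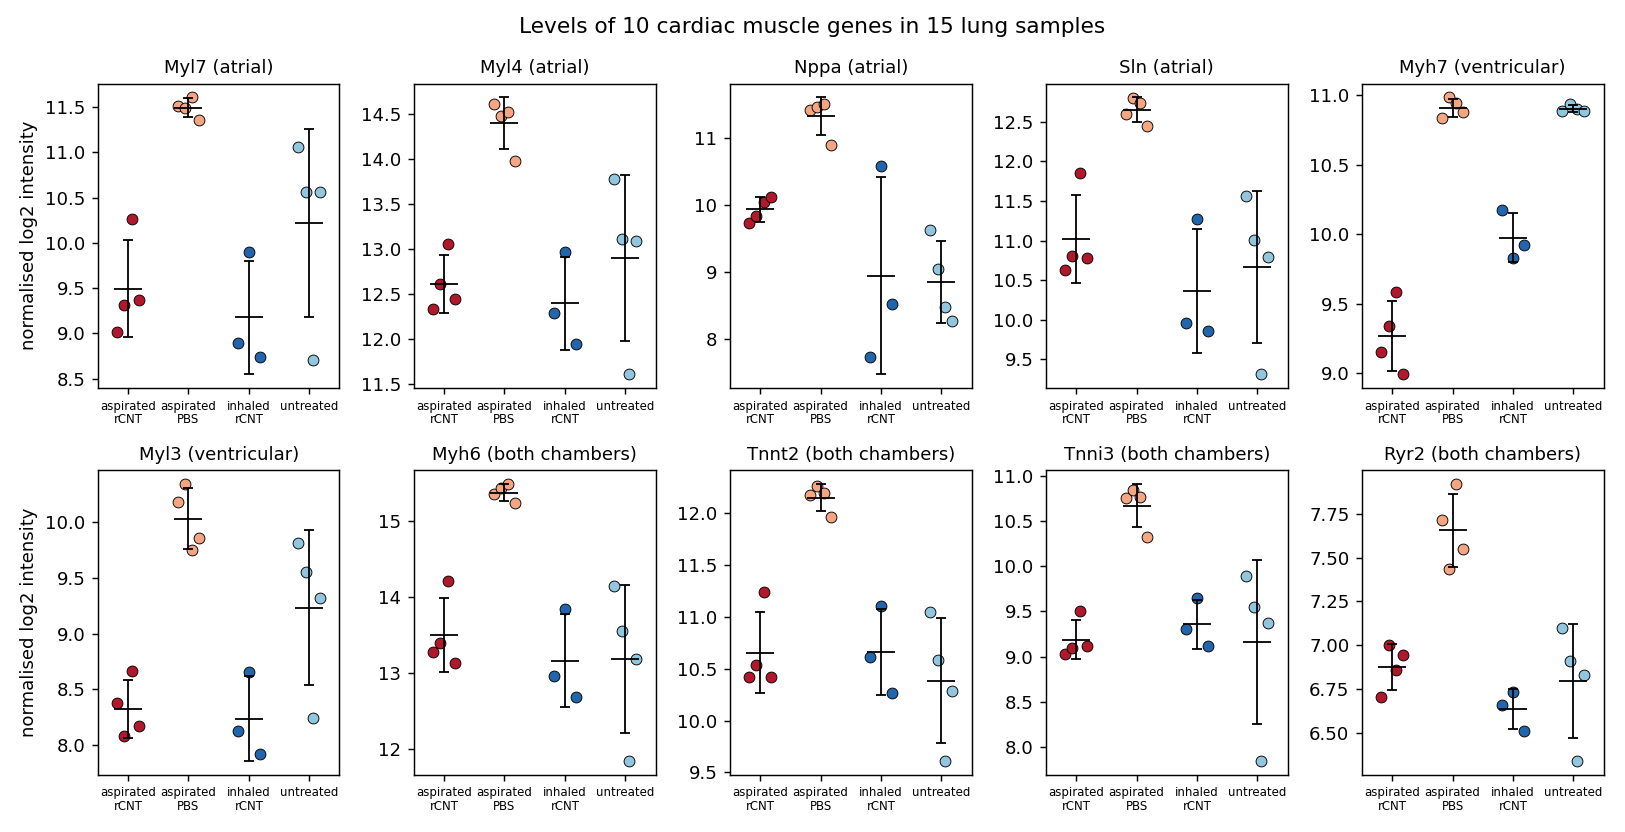
Normalised log2 intensity of each of the 10 cardiac muscle genes (y axis, its own range per panel) in aspirated rCNT (4), aspirated PBS (4), inhaled rCNT (3) and untreated (4) lung samples; points are samples, the bar is the group mean and the whiskers are ± 1 SD. Aspirated PBS samples sit highest on average in all 10 panels, and Myh7 is the panel in which the untreated samples form a tight group, with an SD of 0.024.

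The first comparison set aspirated rCNT against aspirated PBS. All 10 genes fell after rCNT, by 0.78 to 2.0 on the log2 scale, with limma's adjusted p between 3.5e-09 and 0.0131. In none of the 10 did an rCNT sample reach the level of a PBS sample. Over all 25251 features 26.5% were called lower in this comparison and 23.3% were lower without overlap of the groups. The median of the 10 genes was -1.64, against -0.044 over all features.

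Among the myosin heavy chains, Myh6, the fast alpha chain of the adult mouse heart, lay at 13.28, 13.39, 14.21 and 13.13 (log2 intensity) in rCNT lungs, against 15.36, 15.44, 15.49 and 15.24 in PBS lungs. Its difference was -1.88 ± 0.38 (log2 fold change ± SE, n = 4 each, limma adjusted p = 0.000681), or 3.67-fold lower. The second, dimmer probe of Myh6 gave -0.94 ± 0.14 (limma adjusted p = 3.85e-05), the same direction at a smaller size. Myh7 lay at 9.15, 9.34, 9.58 and 8.99 in rCNT lungs, against 10.84, 10.99, 10.94 and 10.88 in PBS lungs. With a difference of -1.65 ± 0.10 (limma adjusted p = 3.5e-09) it had the smallest SE of the 10 genes. Myh6 and Myh7 are neighbours of closely related sequence, and cross-hybridisation between their probes was not tested.

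The 3 light chains fell by similar amounts. The atrial regulatory light chain Myl7 lay at 9.02, 9.31, 10.26 and 9.37 in rCNT lungs, against 11.52, 11.49, 11.61 and 11.36 in PBS lungs. Its difference of -2.0 ± 0.40 (limma adjusted p = 0.00064), or 4.01-fold lower, was the largest estimate of the set. The atrial essential light chain Myl4 lay at 12.33, 12.61, 13.06 and 12.45 in rCNT lungs, against 14.61, 14.47, 14.52 and 13.97 in PBS lungs, a difference of -1.79 ± 0.34 (limma adjusted p = 0.000404). The ventricular essential light chain Myl3 lay at 8.38, 8.08, 8.67 and 8.17 in rCNT lungs, against 10.18, 10.34, 9.75 and 9.86 in PBS lungs, a difference of -1.71 ± 0.27 (limma adjusted p = 6.67e-05). In rCNT lungs replicate 3 was the highest sample for all 3 light chains, and for 8 of the 10 genes of the set.

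The thin filament genes behaved alike. Troponin T (Tnnt2), which anchors the troponin complex on the filament, lay at 10.42, 10.54, 11.24 and 10.42 in rCNT lungs, against 12.17, 12.27, 12.20 and 11.96 in PBS lungs. The difference was -1.49 ± 0.25 (limma adjusted p = 0.000158). Troponin I (Tnni3), the inhibitory subunit, lay at 9.02, 9.10, 9.51 and 9.12 in rCNT lungs, against 10.76, 10.85, 10.77 and 10.32 in PBS lungs, a difference of -1.48 ± 0.30 (limma adjusted p = 0.000797).

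For Nppa, the atrial natriuretic peptide that lowers blood volume and pressure, the values were 9.73, 9.85, 10.06 and 10.13 in rCNT lungs and 11.43, 11.47, 11.51 and 10.91 in PBS lungs. Its difference of -1.39 ± 0.42 had the weakest support of the set (limma adjusted p = 0.0131). Sln lay at 10.63, 10.81, 11.85 and 10.78 in rCNT lungs, against 12.60, 12.81, 12.74 and 12.45 in PBS lungs, a difference of -1.63 ± 0.40 (limma adjusted p = 0.00337). Ryr2, the calcium release channel, is the dimmest of the 10 probes and changed least. It lay at 6.70, 7.00, 6.86 and 6.94 in rCNT lungs, against 7.72, 7.44, 7.92 and 7.55 in PBS lungs, a difference of -0.78 ± 0.12 (limma adjusted p = 5.17e-05). With the scanner software's processed signal in place of the background-corrected one its difference was -1.50, so the size of the change in this dim gene depends on which signal is used.

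Atrial and ventricular genes fell to a like extent. The median difference was -1.71 over the 4 atrial genes (4 lower), -1.68 over the 2 ventricular genes (2 lower) and -1.49 over the 4 genes of both chambers (4 lower). These medians are descriptions and were not tested against each other.

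**Figure D2:**
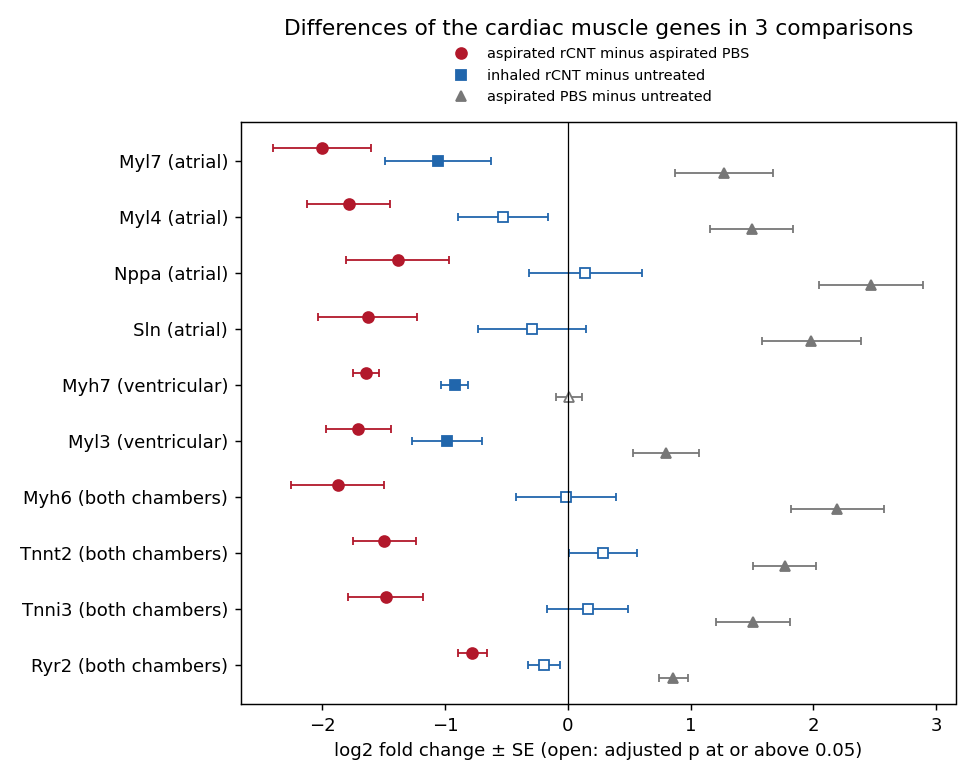
Log2 fold change ± SE (x axis) of the 10 cardiac muscle genes (y axis, by class) for aspirated rCNT minus aspirated PBS (red circles), inhaled rCNT minus untreated (blue squares) and aspirated PBS minus untreated (grey triangles); open symbols have a limma adjusted p of 0.05 or more. All 10 red symbols are filled and lie below 0, 3 blue symbols are filled (Myl7, Myh7 and Myl3), and Myh7 is the one open grey symbol, at 0.0090.

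The second comparison set inhaled rCNT against untreated lungs. Here 3 of the 10 genes fell, the ventricular Myh7 and Myl3 and the atrial Myl7, and 0 rose. Over all features 32.5% were called lower, 28.4% were called higher and 29.1% were lower without overlap, so 3 of 10 called, with 1 of 10 free of overlap, is near or below the background. The median of the 10 genes was -0.24, against -0.020 over all features.

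Myh7 lay at 10.17, 9.83 and 9.92 in inhaled rCNT lungs, against 10.89, 10.94, 10.90 and 10.89 in untreated lungs. Each inhaled sample was below each untreated one, with a difference of -0.92 ± 0.11 (n = 3 and 4, limma adjusted p = 3.57e-06), or 1.90-fold lower. Within slide 2, with 1 inhaled and 3 untreated samples, the difference was -0.69, and within slide 3, with 2 inhaled and 1 untreated sample, it was -1.05. Each slide holds 1 sample of one of these groups, so the within-slide fits took their spread from all 15 samples and assume that the lone sample varies like the others. In them Myh7 had a limma adjusted p of 0.00391 in slide 2 and 0.000326 in slide 3.

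Myl3 lay at 8.13, 8.66 and 7.92 in inhaled rCNT lungs, against 9.82, 9.56, 8.24 and 9.32 in untreated lungs. The groups overlapped through untreated replicate 3, and the difference was -0.98 ± 0.29 (limma adjusted p = 0.00768). Within slides 2 and 3 it was -1.01 and -1.08, with limma adjusted p of 0.102 and 0.103. Myl7 lay at 8.90, 9.89 and 8.74 in inhaled rCNT lungs, against 11.06, 10.56, 8.70 and 10.57 in untreated lungs. Its groups overlapped too, and its difference of -1.06 ± 0.43 was just past the threshold (limma adjusted p = 0.0445). Under 19 of 34 other settings that call of Myl7 was lost, within slides 2 and 3 among them (-1.26 and -1.22, limma adjusted p = 0.166 and 0.21). Leaving out inhaled rCNT replicate 1 or 3, or untreated replicate 1, 2 or 4, ended it too, with the smallest difference of -0.74 without untreated replicate 1.

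The other 7 genes did not pass. Myh6 lay at 12.95, 13.85 and 12.68 in inhaled rCNT lungs, against 14.15, 13.55, 11.84 and 13.18 in untreated lungs, with a difference of -0.015 and a 95% interval of -0.88 to 0.85. Its second probe lay at 7.18, 7.65 and 7.15 in inhaled rCNT lungs, against 7.06, 6.88, 7.03 and 6.91 in untreated lungs, a difference of 0.37 ± 0.15 (limma adjusted p = 0.0421). The probes of Myh6 therefore disagree in this comparison, and no direction is given for the gene. Nppa lay at 7.74, 10.59 and 8.53 in inhaled rCNT lungs, against 9.63, 9.05, 8.48 and 8.27 in untreated lungs. Its inhaled samples spanned more than its untreated ones, and the interval of its difference of 0.14 was -0.83 to 1.12. Myl4 differed by -0.53 (-1.31 to 0.25), Sln by -0.29 (-1.22 to 0.64), Ryr2 by -0.20 (-0.47 to 0.076), Tnni3 by 0.16 (-0.54 to 0.86) and Tnnt2 by 0.29 (-0.30 to 0.87). These intervals are wide enough to hold a change of 1.5-fold for all of these genes except Ryr2, so the p-values that missed the threshold do not show that the levels were alike.

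Single samples weighed heavily here. Untreated replicate 3 was the lowest untreated sample for 8 of the 10 genes, by 1.34 below the next for Myh6 and by 1.85 for Myl7. Inhaled rCNT replicate 2 was the highest inhaled sample for 9 genes. Without untreated replicate 3, 5 genes were called lower (Myl4 and Ryr2 in addition), and without inhaled rCNT replicate 2, 6 were (Myl4, Ryr2 and Nppa in addition). Leaving out 1 of the remaining 13 samples at a time gave a count of 2 or 3. The within-slide fits have a group of 1 sample each, and no count is drawn from them. With the aspirated PBS samples in place of the untreated ones the count was 10. The share of all features called lower in that contrast is not given, so this count has no background to be read against.

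The difference of the rCNT effects, aspirated minus inhaled, was tested in the same model. It was below 0 for 10 of 10 genes and passed for 7, against 28.5% of all features called lower. The difference was -1.86 ± 0.56 for Myh6 (limma adjusted p = 0.0094), -1.78 ± 0.38 for Tnnt2 (0.000775), -1.65 ± 0.45 for Tnni3 (0.00519) and -0.72 ± 0.15 for Myh7 (0.000761). It was -1.53 ± 0.62 for Nppa (limma adjusted p = 0.0467), -1.25 ± 0.50 for Myl4 (0.0416) and -0.58 ± 0.17 for Ryr2 (0.00942). For Sln (-1.34, 95% interval -2.60 to -0.077), Myl7 (-0.94, -2.19 to 0.31) and Myl3 (-0.72, -1.56 to 0.11) the adjusted p missed the threshold. The calls of Myl4 and Nppa were lost under 15 and 18 of 29 other settings, and without inhaled rCNT replicate 2 their differences were -0.80 and -0.57. With median centring 3 genes stayed called (Tnnt2, Tnni3 and Ryr2), Myh7 being at -0.39, and with the processed signal 4 did (Myh6, Myh7, Tnnt2 and Tnni3). This contrast contains whatever separates the control groups, which differ in route, kind of control and slide, and these cannot be told apart.

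The controls were therefore compared directly. Of the 10 genes 9 were higher in aspirated PBS than in untreated lungs, by 0.80 to 2.47, and 8 of them without overlap, against 26.3% of all features called higher and 21.8% higher without overlap. Nppa differed most, by 2.47 ± 0.42 (limma adjusted p = 0.000121), followed by Myh6 by 2.20 ± 0.38 (0.000124), Sln by 1.98 ± 0.40 (0.000546) and Tnnt2 by 1.77 ± 0.25 (2.34e-05). Tnni3 differed by 1.51, Myl4 by 1.50, Myl7 by 1.27, Ryr2 by 0.86 and Myl3 by 0.80, with limma adjusted p between 1.41e-05 and 0.0167. Myl3 overlapped between the groups, and without PBS replicate 2 its call was lost (0.70, limma adjusted p = 0.0535). Without untreated replicate 3 the differences of Myl7 and Myl3 were 0.73 and 0.42 and stayed called (limma adjusted p = 0.0291 and 0.035). Ryr2 differed by 1.66 with the processed signal, and the second probe of Myh6 by 1.06. Myh7 was the exception: it averaged 10.91 ± 0.065 in PBS lungs and 10.90 ± 0.024 in untreated lungs (SD, n = 4 each), a difference of 0.0090 with a 95% interval of -0.21 to 0.23. That interval does not reach the estimate of any other member. The median difference was 1.74 over the atrial genes, 0.40 over the ventricular genes and 1.64 over the genes of both chambers. The ventricular value is the midpoint of Myh7 (0.0090) and Myl3 (0.80), which did not behave alike. These medians were not tested against each other.

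Ranked by group mean, aspirated PBS stood first for all 10 genes. Its samples lay apart from those of the group next in rank for 8 genes, and overlapped with untreated samples for Myh7 and Myl3. Below it the order differed between genes, and neighbours overlapped for all but Myh7. Untreated lungs ranked second for Myh7, Myl7, Myl4 and Myl3, aspirated rCNT for Myh6, Sln, Ryr2 and Nppa, and inhaled rCNT for Tnnt2 and Tnni3. For Myh7 every aspirated rCNT sample lay below every inhaled rCNT sample, and these below every untreated one. Its mean was 9.27 ± 0.25 in aspirated rCNT lungs (SD, n = 4) and 9.98 ± 0.18 in inhaled rCNT lungs (SD, n = 3).

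Within groups most of the genes moved together from sample to sample, and Myh7 departed from them in untreated and inhaled rCNT lungs. In aspirated rCNT lungs replicate 3 was the highest sample for 8 genes, Myh7 among them, and replicate 1 the lowest for 6. In untreated lungs the SD of the other 9 genes was 0.32 to 1.04 on the log2 scale, while that of Myh7 was 0.024, and 1.14% of all features had a smaller SD there. The median feature had an SD of 0.11 in untreated lungs. Untreated replicate 1 was the highest untreated sample for 9 genes, and replicate 3 the lowest for 8. In inhaled rCNT lungs replicate 2 was the highest for 9 genes, Myh7 being the exception, and replicate 3 the lowest for 8. In aspirated PBS lungs, where the SDs were 0.065 to 0.29, replicate 4 was the lowest for 7 genes.

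**Figure D3:**
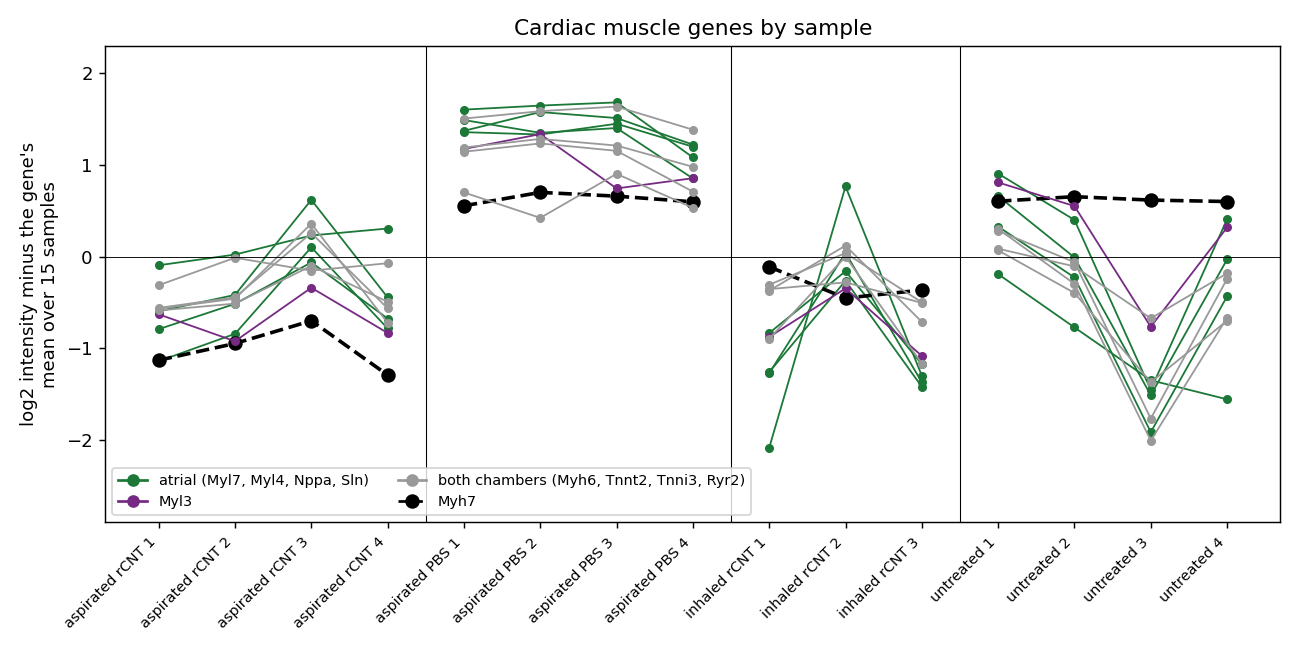
Each line is 1 of the 10 cardiac muscle genes, as its log2 intensity minus its own mean over all 15 samples (y axis), drawn across the samples by group (x axis); green lines are atrial genes, purple Myl3, grey genes of both chambers and the dashed black line Myh7. The 9 other genes dip together in untreated replicate 3 except Nppa, which is lower still in replicate 4, while Myh7 stays level across the untreated samples.

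This was put as the correlation, over the 15 samples' deviations from their group means, of each gene with the mean of the other 9. It is given as a description, since the samples share slides and labelling. It was 0.99 for Sln, 0.98 for Myh6, 0.97 for Myl4 and Myl7, 0.96 for Tnnt2, 0.92 for Tnni3 and 0.90 for Myl3. It was 0.71 for the dim Ryr2, 0.58 for Nppa and 0.100 for Myh7. From Sln to Myl3 in this order, untreated replicate 3 differed by -2.03 to -1.03 from the mean of the other untreated samples. The correlations without that sample are not given. The ventricular light chain Myl3 thus varied with the atrial genes, and the slow heavy chain Myh7 was the member least like the others. As a mean over each class, the atrial genes minus the ventricular genes, each first set to its own mean over the samples, were at 0.22 to 0.74 in aspirated rCNT and 0.36 to 0.81 in aspirated PBS lungs. The same difference was -0.87, 0.50 and -0.59 in inhaled rCNT and -1.48 to -0.28 in untreated lungs. The aspiration groups overlapped in this measure, as did inhaled rCNT and untreated lungs.

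Outside the set, the 10 named genes whose deviations followed those of the members most closely were mostly sarcomere genes. By correlation with the members' mean over the 15 samples these were Tpm1, the tropomyosin of the thin filament (0.98), the myosin heavy chain Myh7b (0.98), the kinase Mapk10 (0.98), the M-band protein Myom2 (0.98), Myh8 (0.98), the mitochondrial creatine kinase Ckmt2 (0.98), cardiac myosin binding protein C, Mybpc3 (0.97), its relative Mybphl (0.97), Txlnb (0.97) and myoglobin, Mb (0.97). Myh8 is a perinatal heavy chain whose probe may pick up related myosins, which was not tested. Untreated replicate 3 deviated most for each of these genes, from -0.54 for Myh7b to -1.58 for Mb, so the correlations lean on that sample. All 10 fell after aspirated rCNT, by 0.95 to 1.82 (limma adjusted p 6.38e-06 to 0.0109), against 26.5% of all features. They were picked from these same data for following the members, so their falls are not separate support. After inhaled rCNT 3 of them (Myh7b, Mybphl and Txlnb) fell, each with overlap of the groups. That count is near the 32.5% of all features called lower there.

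Other genes of the heart were counted from 5 lists. After aspirated rCNT 17 of 21 measured sarcomere genes fell and 1 rose, with a median of -1.06. The muscle LIM protein Csrp3 fell by 1.69, the titin cap Tcap by 1.61 and Mybphl by 1.60. Of 14 energy genes 13 fell and 0 rose (median -1.01), with myoglobin at -1.82, Ckmt2 at -1.77 and the fatty acid carrier Fabp3 at -1.73. Cardiac actin fell by less, by 0.31 (limma adjusted p = 0.0401). The dim Myl2 differed by 0.16 and did not pass (limma adjusted p = 0.241), and at its level a change could be missed.

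The lists of calcium and rhythm genes and of regulators had medians nearer 0, and are to be read against the 26.5% of all features called lower. The lists were not tested against each other. Of 17 calcium and ion channel genes 7 fell and 1 rose (median -0.13), among them the atrial potassium channel Kcnj5 (-1.02), calsequestrin, Casq2 (-0.96), and the calcium pump Atp2a2 (-0.80). Of 8 hormone and stress genes 3 fell and 1 rose (median -0.0096). Corin, the protease that activates the natriuretic peptide, rose by 0.77 while its substrate Nppa fell. The small heat shock genes Cryab and Hspb7 fell by 0.63 and 0.36. Of 13 measured transcription factors 7 fell and 1 rose (median -0.23), with Tbx3 at -0.93, the atrial factor Nr2f2 at -0.67 and the smooth and heart muscle coactivator Myocd at 0.65. Another 7 of 20 listed factors did not pass the filter on dim probes, Nkx2-5 among them.

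After inhaled rCNT the same lists gave 9 of 21 sarcomere genes lower and 3 higher (median -0.38). Of 14 energy genes 6 were lower and 3 higher (-0.51). Of 17 calcium and ion channel genes 6 were lower and 3 higher (-0.21). Of 8 hormone and stress genes 3 were lower and 1 higher (-0.079), and of 13 transcription factors 6 were lower and 1 higher (-0.22). These counts are to be read against 32.5% of all features called lower and 28.4% called higher, and the lists were not tested against that share. The sarcomere-associated Cmya5 rose by 2.79, at 10.92, 9.75 and 10.47 in inhaled rCNT lungs, against 7.25, 7.60, 7.81 and 7.80 in untreated lungs. In aspirated PBS lungs, without rCNT, it lay at 9.30, 9.70, 8.70 and 9.86. The untreated group was thus the low one, and inhaled rCNT and PBS samples overlapped. Pdlim5 rose by 0.75 and Actc1 fell by 0.53. Among energy genes the dehydrogenase kinase Pdk4 rose by 1.14, while the muscle forms of cytochrome oxidase subunits, Cox6a2 and Cox8b, fell by 1.13 and 0.68. Asb2 fell by 0.87, the junctophilin gene Jph2 by 0.59 and Ankrd1 by 0.84, and Asph rose by 0.64. Asph averaged 11.01 in inhaled rCNT, 10.98 in aspirated PBS and 10.35 in untreated lungs. The peptide-processing enzyme Pam fell by 0.45 and Hspb7 rose by 0.36. Hspb7 averaged 7.45 in inhaled rCNT, 8.21 in aspirated PBS and 7.07 in untreated lungs. Pdlim5 and Pdk4 were higher in inhaled rCNT lungs than in both control groups. Of the transcription factors Mef2c fell by 1.25, Gata6 by 0.81 and Srf by 0.41. In aspirated PBS against untreated lungs 15 of 21 sarcomere genes were higher and 0 lower (median 0.89). Of 14 energy genes 9 were higher and 2 lower (0.59), against 26.3% of all features called higher.

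Markers of other tissues were counted beside these results. Skeletal muscle markers were mixed after aspirated rCNT: 5 of 13 measured rose and 3 fell, with a median of 0.18. Among all features 26.5% were called lower in this comparison, and 11906 of 25251 differed in either direction. The fast myosin binding protein Mybpc2 had the smallest p of the list and rose by 1.28. The 3 that fell, named after their values were seen, were Myl1 (-1.03), Tnnt3 (-0.48) and Atp2a1 (-0.31). Their summed intensity was 4299 to 4411 in rCNT lungs and 3670 to 4064 in PBS lungs. The fast myosin heavy chains Myh1, Myh2 and Myh4, together with Mylpf, Actn3, Casq1, Tnni1, Myot and Chrna1, did not pass the filter. Of 12 smooth muscle markers 4 rose and 2 fell (median 0.090), Actg2 rising by 0.86, with a summed intensity of 112263 to 148838 in rCNT lungs and 112712 to 127902 in PBS lungs. Adipocyte markers fell for 4 of 8 (median -0.34), with a summed intensity of 7088 to 10143 in rCNT lungs and 10902 to 16545 in PBS lungs, thymus markers for 1 of 5 and oesophagus markers for 0 of 4.

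Markers of several lung and blood cell types fell together with the heart muscle genes after aspirated rCNT. Erythrocyte markers fell for 7 of 7 (median -1.19; Alas2, an enzyme of haem synthesis, by 1.28), with a summed intensity of 57965 to 85653 in rCNT lungs and 142266 to 209951 in PBS lungs. Endothelial markers fell for 9 of 10 (-0.74; the receptor Kdr by 1.05), with 68920 to 81140 in rCNT lungs and 106746 to 117513 in PBS lungs. Alveolar type 1 markers fell for 6 of 7 and rose for 1 (-0.95; Akap5 fell by 1.24), with 83761 to 95701 in rCNT lungs and 137133 to 161264 in PBS lungs. Club cell markers fell for 4 of 4 (-1.14; the esterase Ces1d by 1.08), with 174703 to 307524 in rCNT lungs and 526902 to 635775 in PBS lungs. Mesothelial markers fell for 5 of 6 (-0.77; Upk1b by 1.17), with 6853 to 8881 in rCNT lungs and 8808 to 11012 in PBS lungs. Alveolar type 2 markers fell for 3 of 8 and rose for 1 (-0.25), and ciliated cell markers rose for 4 of 5 and fell for 1 (0.48). The part of these shifts in the falls of the heart muscle genes was not tested.

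After inhaled rCNT erythrocyte markers fell for 7 of 7 (median -1.19) and endothelial markers for 10 of 10 (-0.72). The part of these shifts in the levels of the heart muscle genes was not tested. Among all features 32.5% were called lower and 28.4% higher in this comparison. The erythrocyte sum was 51738 to 105507 in inhaled rCNT lungs and 130533 to 252553 in untreated lungs. Smooth muscle markers rose for 2 and fell for 4 of 12 (-0.071), and skeletal muscle markers fell for 6 of 13 (-0.11). Ciliated cell markers rose for 5 of 5 (1.57), with a summed intensity of 19236 to 22795 in inhaled rCNT lungs and 6731 to 7213 in untreated lungs. Adipocyte markers fell for 5 and rose for 2 of 8 (-0.51), thymus markers fell for 4 and rose for 1 of 5 (-0.40), and mesothelial markers fell for 4 and rose for 2 of 6 (-0.79). Of the remaining lists, alveolar type 1 markers fell for 2 of 7, alveolar type 2 markers fell for 3 and rose for 1 of 8, club cell markers fell for 2 of 4 and oesophagus markers for 1 of 4. Nuclear noncoding RNAs (Neat1, Malat1 and 3 small nuclear or nucleolar RNAs) rose for 5 of 5, with a median of 4.04 and a summed intensity of 113438 to 125709 in inhaled rCNT lungs and 6729 to 8237 in untreated lungs. They were also higher in aspirated PBS than in untreated lungs for 5 of 5 (median 2.76), with a sum of 74308 to 98677 in PBS lungs. After aspirated rCNT 2 of 5 fell (-0.057). The untreated group thus stood apart in these RNAs as well, and their part in the comparisons with untreated lungs was not tested.

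Some cell markers moved in the same direction as the heart muscle genes between the controls. The counts below are to be read against all features, of which 26.3% were called higher and 15007 of 25251 differed in either direction. In aspirated PBS against untreated lungs adipocyte markers were higher for 5 of 8 and lower for 0 (median 0.60), with a summed intensity of 10902 to 16545 in PBS lungs and 6735 to 9090 in untreated lungs. Ciliated cell markers were higher for 4 of 5 and lower for 0 (0.45), with 8070 to 9850 in PBS lungs and 6731 to 7213 in untreated lungs. Smooth muscle markers were higher for 3 and lower for 1 of 12 (0.086), their largest difference being 1.20 for the heavy chain Myh11, named after its value was seen, and alveolar type 1 markers were higher for 3 and lower for 2 of 7 (0.034). Skeletal muscle markers were higher for 3 and lower for 5 of 13 (-0.16), mesothelial markers higher for 1 and lower for 4 of 6 (-0.57), endothelial markers lower for 4 of 10 (-0.14) and erythrocyte markers lower for 3 of 7 (-0.29). Thymus markers were lower for 2 of 5, oesophagus markers lower for 2 of 4 and alveolar type 2 markers higher for 1 of 8, while the 4 club cell markers lay between -0.036 and 0.18. The part of these shifts in the higher levels of the heart muscle genes was not tested.

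**Figure D4:**
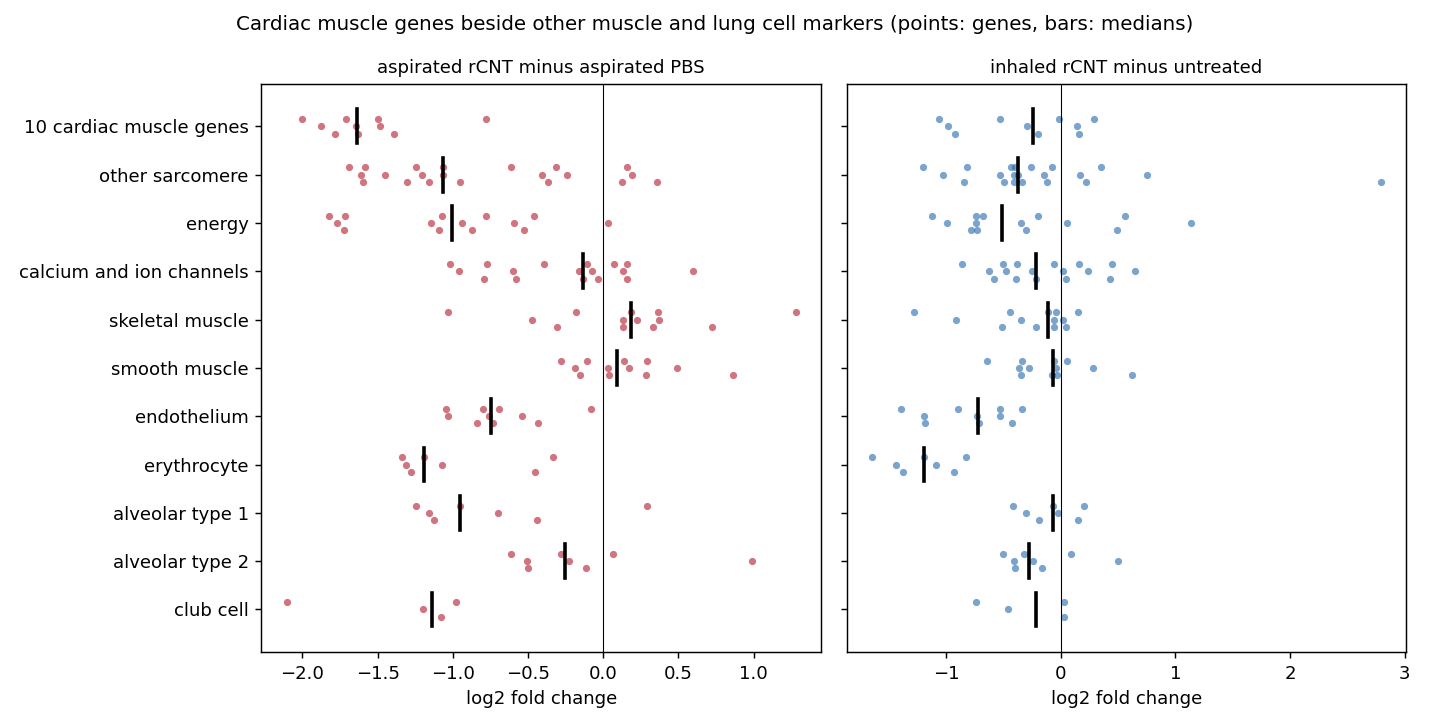
Log2 fold change (x axis) of single genes (points) and their median (black bar) for the 10 cardiac muscle genes and for lists of other cardiac genes and of markers of other cells (y axis), for aspirated rCNT minus aspirated PBS (left) and inhaled rCNT minus untreated (right). In the left panel the cardiac muscle genes have a median of -1.64, while skeletal and smooth muscle markers centre on 0.18 and 0.090.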

How the data were processed

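Lung RNA was hybridised to 2-colour Agilent arrays, and the 15 samples are single channels of 14 arrays on 3 slides. One array carries both inhaled rCNT replicate 2 and untreated replicate 4. Per the file headers, the scans were read by Feature Extraction 11.0.1.1 and the probes were designed on build mm9. The deposited median intensity of a spot in the sample's own channel was corrected by normexp for its median local background, with an offset of 50. Values were then turned into log2 and made equal in distribution by quantile normalisation. The deposited series table was taken as log2 values of the authors, since each column followed the log2 intensity of the own channel at a correlation of 0.994 to 1.00. Its log base and centring are not stated (column medians 6.58 to 6.59), and it served as an alternative.

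Control and outlier spots (106 to 154 per sample) were left out, and 0 spots were saturated. Between 54.6% and 64.7% of spots were well above background, at a median brightness of 56.5 to 149.5. For arrays, their number limits the precision. The filter kept probes that 3 or more samples of a group showed well above background (34270 of 55681). Of 29123 probes with a RefSeq accession 27656 matched a symbol, through a table of GRCm38.p6 used for names. The brightest probe stood for a gene.

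One limma 3.58.1 model (R 4.3.3) with 4 groups and the dye was fitted to 25251 features, two-sided, with Benjamini-Hochberg adjustment over all of them and a threshold of 0.05. The 10 genes, the gene lists and the comparisons were chosen with earlier results of these data known. Named from each other cardiac list were the 3 largest changes per rCNT comparison that passed without overlap, with Myl2, Actc1 and Bmp10 (another gene fixed with these is not reported here), the 10 genes most like the members, and, for the marker lists described, the gene with the smallest p. On simulated data for aspirated rCNT against PBS, 97% of genes changed by 0.75 and 99% of those changed by 1.5 (log2) were recovered, and for inhaled rCNT against untreated 92% and 97%. Recovery at the spread of the 10 genes was not tested. In untreated lungs all of them but Myh7 had an SD of 0.32 to 1.04, against 0.11 for the median feature. Alternatives covered signal, background offset, scaling, filter, probe choice, dye, slide, weights, variance, replicate block, control group and leaving out each sample. Figures were drawn with Python 3.11.15. The closest samples of a group correlated at 0.998, and none was taken as a duplicate.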

Additional observations from a re-analysis of the deposited data

Results flagged for a closer look

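In groups of 4 samples, 3 of 30 gene and group pairs held a sample far from the others, where chance gives about 1 in 20. Tnnt2 in aspirated rCNT replicate 3 (11.24) and Sln in the same sample (11.85) stood above the other rCNT samples, with a gap of 0.854 and 0.853 of the group's range. Nppa in aspirated PBS replicate 4 (10.91) stood below the other PBS samples, with a gap of 0.868 of the range. Neither sample brought its group into overlap with the other aspiration group.

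The rCNT effects, each taken against its own control, differed by the test of the difference for Myh6 (-1.86 on the log2 scale, aspirated minus inhaled). They also did for Tnnt2 (-1.78), Tnni3 (-1.65), Nppa (-1.53), Myl4 (-1.25), Myh7 (-0.72) and Ryr2 (-0.58). The calls of Nppa and Myl4 were lost under 18 and 15 of 29 other settings. All of these genes except Myh7 were also called higher in aspirated PBS than in untreated lungs. Route, kind of control and slide cannot be told apart in these values.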

How the results depend on the processing

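All 10 calls after aspirated rCNT kept their direction and their side of the threshold under each alternative run (29 each, 28 for Ryr2, which did not pass the filter that asks for all 15 samples). Leaving out each sample in turn, 10 to 10 members were lower after aspirated rCNT, 2 to 6 after inhaled rCNT and 5 to 9 in the difference of the effects, and 8 to 9 were higher in PBS than in untreated lungs. In the difference of the effects 4 members were lower with the processed signal and 3 with median centring, under which the median of all features was -0.15 for inhaled rCNT and 0.14 for the difference, against -0.020 and -0.0071 as reported. For inhaled rCNT 10 members were lower with aspirated PBS as the control, a contrast for which the share of all features is not given. With the second Myh6 probe, an alternative added after the data were seen, 1 member was higher.

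Inhaled rCNT estimates changed sign for Tnnt2 and Tnni3 with median centring (-0.026 and -0.049) and with aspirated PBS as the control (-1.48 and -1.35). That of Nppa did so with slide as a fixed term (-0.052), array weights (-0.20), the replicate block (-0.17), within slide 2 (-1.30) and with PBS as the control (-2.33). That of Myh6 did so with cyclic loess (0.19), the mean of its probes (0.18), within slide 3 (0.082) and with its second probe (0.37). Leaving out single samples spread Myh6 from -0.47 to 0.38, Sln from -0.86 to 0.080, Tnni3 from -0.25 to 0.42 and Nppa from -0.82 to 0.70, and Myh7 in PBS against untreated lungs from -0.011 to 0.029. None of these members had passed in that comparison, and the cause of each change was not tested.

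Samples sharing a number did not deviate together (correlations of -0.14 to 0.29 for aspiration and -0.09 to 0.12 for inhalation), so the numbers do not pair them. With the replicate block 8770 features differed between PBS and untreated lungs, against 15007 without it, the calls of Myl7 (0.87, limma adjusted p = 0.192) and Myl3 (0.65, limma adjusted p = 0.182) ended there, Myh7 changed sign (-0.22), and 10 members were lower after aspirated rCNT. A fit with the array as a random block could not be run, because 1 array is shared.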
